A study of Homo sapiens with 12 samples.

Results

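Counts of 9 abundant housekeeping transcripts were followed across 12 mRNA libraries of HEK293T cells. The 9 genes were ACTB and ACTG1, the cytoplasmic actins; TUBB and TUBA1B, a beta and an alpha tubulin; EEF1A1 and EEF2, the elongation factors of translation; GAPDH, a glycolytic enzyme; PPIA, the folding enzyme cyclophilin A; and B2M, the light chain of MHC class I. They were taken by name from a list that was set with earlier results of these data known, after the counts of all transcripts of a gene had been summed, and they make up 9 of 24407 features and 9 of the 14621 genes that passed the filter on low counts. All 9 passed that filter.

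HEK293T cells derive from human embryonic kidney and express the large T antigen of SV40. Every library came from cells transfected with Lipofectamine, with guide RNA plasmids for 4 sites at IL1RN and with 1 of 4 protein plasmids, in 3 replicates each. The dCas9 group received Cas9 that binds DNA without cutting it. The dCas9-VP64 group received dCas9 joined to a viral activation domain, the dCas9-p300 core group received dCas9 joined to the acetyltransferase domain of the coactivator p300, and the dCas9-p300 D1399Y group received the same fusion with a mutation that removes the acetyltransferase activity. All 4 groups thus share the guides, the dCas9 moiety and the transfection, and no library of untransfected cells was among those analysed. Expression was transient, so each library mixes cells that took up plasmid with cells that did not. In such bulk RNA, fewer cells and less RNA per cell cannot be told apart.

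Housekeeping genes encode proteins that nearly every cell needs at high level: filaments, microtubules, the ribosome's helpers, central metabolism. Their mRNAs are abundant and are often used as references on the assumption that their level does not move between samples. An abundant mRNA is also where a sequencing assay can saturate, since many fragments then share the same start and a step that keeps 1 copy of identical fragments would hold the count down. Such a ceiling shows in counts that do not grow in proportion to the depth of the library. No source used here says whether identical reads were removed.

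The shallowest library, dCas9 replicate 3, held 2442960 counts and the deepest, dCas9-p300 core replicate 2, held 5154627, a 2.11-fold range, and the 10 other libraries lay between 3633590 and 4228316. These 2 libraries stand apart in depth, and results that rest on them are given with and without them. The description labels of replicate 3 of both p300 groups start with CV42 and those of the 10 others with CV41. All 7 markers set for HEK293T were detected, from 204 counts over the 12 libraries for PAX2 to 8945 for VIM. Their summed level was 415 to 685 CPM (here relative to the unscaled library total), against 20.95 to 31.0 for 5 fibroblast markers (COL1A2 had 1 count and DCN 9) and 10.72 to 22.1 for 5 blood cell markers (CD3E had 0 counts and PTPRC 21). The labels say only that transfections were done in triplicate and not whether the cultures were separate, so a p-value here reflects the spread among these libraries, which may be technical.

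The sequence just before the transcription start is shown for 4 of the members, EEF2 and PPIA with the exact letters TATAAA and EEF1A1 and GAPDH without them. The 40 bases before the start, on the transcribed strand and from the RefSeq promoter table of GRCh38.p14, are in lower case with any TATAAA in capitals.
EEF2, chr19:3985464-3985503, minus strand: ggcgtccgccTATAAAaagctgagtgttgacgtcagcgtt
PPIA, chr7:44796641-44796680, plus strand: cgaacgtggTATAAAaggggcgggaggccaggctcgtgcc
EEF1A1, chr6:73521033-73521072, minus strand: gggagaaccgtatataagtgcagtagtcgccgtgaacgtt
GAPDH, chr12:6535224-6535263, plus strand: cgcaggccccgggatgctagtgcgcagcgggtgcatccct

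The table held 8 of the 9 members. TATAAA stood in these 40 bases for 2 of the 8, EEF2 and PPIA, and for 2.70% of 27305 promoters. In the 250 bases before the start, on either strand, GGGCGG was present for 7 of 8 members and 42.3% of promoters, and CCAAT for 4 of 8 members (ACTG1, TUBB, PPIA and B2M) and 33.0% of promoters. Each motif was searched independently of the others, and a match says only that these letters are present. EEF1A1 holds tatataag, a like run that the search for TATAAA does not count, so it is not shown to lack a TATA element. A single promoter per gene was searched, and other starts of the same gene were not.

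Among the cytoskeletal members, ACTB, the actin most used as a reference, had counts of 823, 771 and 780 in the dCas9 libraries, in the order of replicates 1, 2 and 3. They were 879, 803 and 801 with dCas9-VP64, 889, 978 and 789 with dCas9-p300 core, and 789, 665 and 809 with dCas9-p300 D1399Y. The 4 groups overlapped, and dCas9 replicate 3, with the lowest total of all libraries, had the third lowest ACTB count, a little under the median of 802.

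ACTG1, the other cytoplasmic actin, had summed counts of 2997, 2889 and 2889 with dCas9, 3095, 2726 and 2985 with dCas9-VP64, 3276, 3404 and 2869 with the p300 core, and 3054, 2647 and 3008 with D1399Y. Its 3 transcript rows had median counts of 923.5, 1025 and 1020.5, so near to each other that reads shared by the isoforms may be counted more than once in the sum. TUBB had 1149, 1179 and 1048 counts with dCas9, 1286, 1078 and 1203 with dCas9-VP64, 1166 and 1197 with replicates 1 and 3 of the p300 core, and 1153, 1109 and 1209 with D1399Y. TUBB was lowest in the library of lowest total and highest in core replicate 2, that of highest total, at 0.0271% of the counts, and its groups overlapped.

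TUBA1B, the partner of TUBB in the tubulin dimer, had 812, 857 and 767 counts with dCas9 and 854, 813 and 812 with dCas9-VP64. It had 844, 979 and 811 with the p300 core and 791, 800 and 854 with D1399Y. As for TUBB, the lowest count was in dCas9 replicate 3 and the highest in dCas9-p300 core replicate 2, and the groups overlapped.

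EEF1A1, which brings aminoacyl-tRNA to the ribosome, had the steadiest counts of the 9. They were 1734, 1801 and 1653 with dCas9, 1823, 1820 and 1755 with dCas9-VP64, 1749, 1911 and 1725 with the p300 core, and 1795, 1785 and 1756 with D1399Y. The highest EEF1A1 count exceeded the lowest by a factor of 1.16, while the totals of these same libraries differed 2.11-fold. EEF2, which moves the ribosome along the mRNA, had 2153, 2019 and 1760 counts with dCas9, 2071, 1888 and 1943 with dCas9-VP64, 2209, 2233 and 1946 with the p300 core, and 2006, 1718 and 2062 with D1399Y. The lowest EEF2 count was in D1399Y replicate 2, a library of middling depth, and dCas9 replicate 3 came second lowest.

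GAPDH, which oxidises glyceraldehyde 3-phosphate in glycolysis, had summed counts of 1438, 1341 and 1323 with dCas9, 1438, 1287 and 1383 with dCas9-VP64, 1402, 1529 and 1379 with the p300 core, and 1349, 1260 and 1391 with D1399Y. Its 2 transcript rows had median counts of 734.5 and 640.5, and the caution on shared reads holds for it too. PPIA, a prolyl isomerase and the target of cyclosporin, had 671, 662 and 644 counts with dCas9, 749, 695 and 679 with dCas9-VP64, 695, 762 and 646 with the p300 core, and 674, 579 and 673 with D1399Y. For both genes D1399Y replicate 2 was lowest. The groups overlapped for GAPDH, while all 3 dCas9-VP64 counts of PPIA lay above all dCas9 and all D1399Y counts, a separation of counts not scaled for depth.

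B2M, which pairs with the MHC class I heavy chains, was the least counted member, with 343, 345 and 298 counts with dCas9 and 361, 348 and 351 with dCas9-VP64. It had 339, 391 and 329 counts with the p300 core and 331, 324 and 314 with D1399Y. All 3 dCas9-VP64 counts of B2M lay above all 3 dCas9 and all 3 D1399Y counts. The share of all genes that separate so in raw counts was not computed, so these separations are not read as results about B2M or PPIA. In CPM relative to library sizes scaled by TMM (edgeR's trimmed mean of M-values), the level used from here on, dCas9-VP64 (88.3 to 89.1 for B2M) overlapped both dCas9 (82.1 to 112.7) and D1399Y (83.0 to 93.8), and so it did for PPIA.

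**Figure D1:**
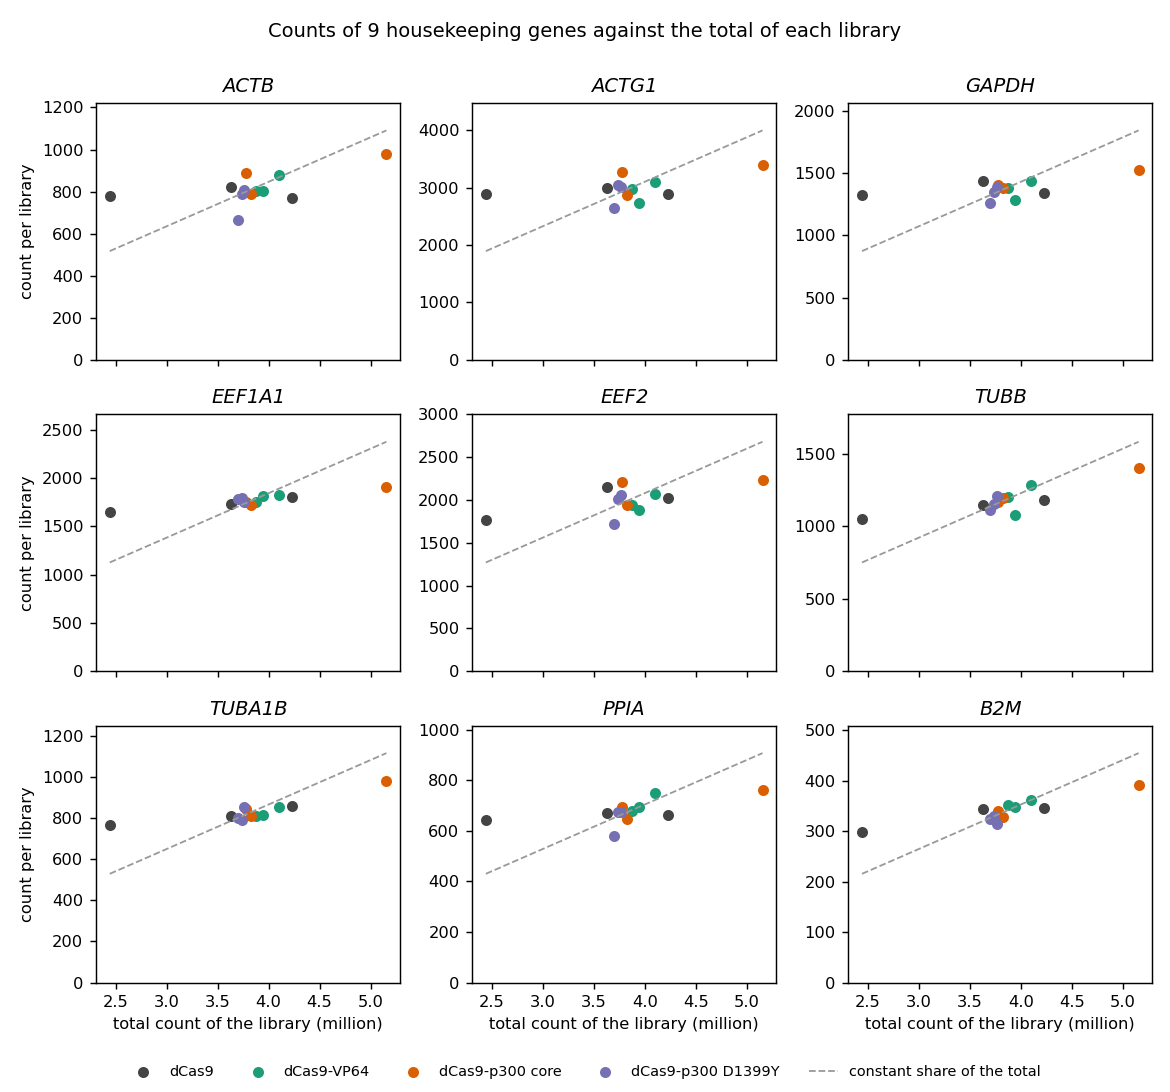
Count of each gene (vertical axis, linear from 0) against the total count of the library (horizontal axis), with 1 point per library coloured by group and a dashed line for a constant share of the total. The library of lowest total, 2442960, lies above the dashed line for all 9 genes and the library of highest total, 5154627, below it.

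Each of these genes took a small share of the counts of a library. The total sums all transcript rows, in which reads shared by isoforms may be counted more than once, so a share of counts is not a share of mRNA. The share of ACTB ran from 0.0180% in D1399Y replicate 2 (95% Wilson interval 0.0167% to 0.0194%) to 0.0319% in dCas9 replicate 3 (0.0298% to 0.0342%). The share of EEF1A1 ran from 0.0371% in dCas9-p300 core replicate 2 (0.0354% to 0.0388%) to 0.0677% in dCas9 replicate 3 (0.0645% to 0.0710%). These intervals do not overlap within a gene. They cover counting error only, since no molecular identifiers mark separate molecules among the reads.

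The share of ACTG1 ran from 0.0660% to 0.118%, that of EEF2 from 0.0433% to 0.0720% and that of GAPDH from 0.0297% to 0.0542%. TUBB took 0.0271% to 0.0429%, TUBA1B 0.0190% to 0.0314%, PPIA 0.0148% to 0.0264% and B2M 0.00759% to 0.0122%. For all 9 genes the highest share was in dCas9 replicate 3, and for 8 of them, all but ACTB, the lowest was in dCas9-p300 core replicate 2. The 9 genes summed to 0.264% of the counts in the deepest library and 0.457% in the shallowest. Ranked by count among all features, ACTG1 stood at 17, EEF2 at 73, EEF1A1 at 96, GAPDH at 219 and TUBB at 328. TUBA1B stood at 809, ACTB at 851, PPIA at 1249 and B2M at 3787, so many genes were counted more often than ACTB. These counts are sums over all rows of a gene and are not scaled for length. Divided by its matched length, the mean ACTB count ranked 102 among 36001 transcripts of at least 500 bases.

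The counts of all 9 genes grew less than the library total. From the shallowest to the deepest library the total grew 2.11-fold, and the members grew by a median factor of 1.25. GAPDH and EEF1A1 grew least, both 1.16-fold, with 95% exact counting intervals of 1.07 to 1.24 for GAPDH and 1.08 to 1.24 for EEF1A1. If reads shared by the rows of GAPDH were counted more than once, its interval is too narrow. TUBB grew most, 1.33-fold (1.23 to 1.45), and the highest upper bound, 1.53 for B2M, was still under the growth of the total.

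Over all 12 libraries this was measured as the coefficient of the log2 total in edgeR's quasi-likelihood fit, on counts scaled by the library total and TMM factor. A coefficient of 0 means that a count grew in proportion to the total, and of -1 that it did not move with it. The total enters both the scaling and the coefficient, so a count that stays put has a coefficient near -1 by construction. All 9 members had a coefficient below 0 with an adjusted p under 0.05, where 6.66% of the 14621 genes were called below 0 and 8.06% above. Called or not, 50.4% of genes had a coefficient below 0. The members' median was -0.65, against -0.01 over all genes.

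GAPDH had a coefficient of -0.75 ± 0.12 (SE, adjusted p = 0.0124 by edgeR) and ACTG1 one of -0.73 ± 0.13. The elongation factors were at -0.71 ± 0.12 for EEF1A1 and -0.61 ± 0.14 for EEF2. ACTB was at -0.65 ± 0.15, PPIA at -0.68 ± 0.13 and TUBA1B at -0.61 ± 0.12. B2M, at -0.55 ± 0.14, and TUBB, at -0.54 ± 0.13, came nearest to growth with the total, and the adjusted p of the 9 ran from 0.0124 to 0.0291. Differences among the 9 coefficients were not tested.

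The call depended on 2 dCas9 libraries and on the terms in the fit. Without dCas9 replicate 3, no member and no gene was called (adjusted p = 1.00 in edgeR). The unadjusted p of that edgeR fit was under 0.05 for 8 of 9 members, and for 523 of 14772 genes in either direction. The members' median coefficient was then -0.62, with all 9 below 0. Without dCas9 replicate 2, no member was called either (adjusted p 0.0507 to 0.0606 in edgeR), with a median of -0.57. With group terms beside the total, no gene at all was called (0% of 14621). All 9 members then had an unadjusted p under 0.05 below 0, as did 12.8% of genes, with adjusted p from 0.0608 to 0.0875 in edgeR and a median of -0.69. In the CV41 libraries alone, 4 of 9 members and 227 of 14763 genes were called, and the members' median was -0.60. With terms for the replicate number, 3 of 9 members and 99 of 14621 genes were called, and the members' median was -0.64.

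The size of the coefficient went with transcript length over all genes, and dCas9 replicate 3 was skewed towards short transcripts. In the shortest decile of genes (under 1287 bases) the median coefficient was -0.62, and in the longest decile (above 6925 bases) it was 0.83. In dCas9 replicate 3 the shortest decile lay 0.54 above its mean over the libraries in log2 level and the longest decile 0.79 below (-0.79), while the members lay 0.42 above. Lengths were those of GENCODE transcripts paired with the RefSeq rows, and 7 of the 9 members, from B2M at 943 bases to TUBB at 2670, were shorter than the median gene at 3007. For these, length and abundance cannot be told apart through dCas9 replicate 3.

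EEF1A1 and EEF2 were the 2 long members, with 4441 and 3164 bases in the GENCODE transcripts paired with their rows. The length of the hg19 model was not used here, and the placing of EEF1A1 and EEF2 by length, their counts per base and their values with length offsets rest on these lengths. The 251 genes of like length (3008 to 4731 bases) in the same highest decile of counts per base had a median coefficient of 0.10 and grew 2.11-fold from the shallowest to the deepest library. EEF1A1 grew 1.16-fold and EEF2 1.27-fold, both well under that. When each library's trend with length was removed by offsets, EEF1A1 had a coefficient of -1.04 ± 0.11 (edgeR adjusted p = 0.000184) and EEF2 one of -0.63 ± 0.13 (edgeR adjusted p = 0.0232). The value for EEF1A1 lies past -1, by less than its SE, though its raw count grew 1.16-fold from the shallowest to the deepest library. It therefore rests on the offset for 4441 bases, and no other length was tried.

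The 7 shorter members were not called after those offsets. Their coefficients were -0.43 ± 0.13 for PPIA, -0.42 ± 0.12 for TUBB, -0.42 ± 0.13 for ACTG1, -0.39 ± 0.14 for GAPDH, -0.27 ± 0.13 for ACTB, -0.18 ± 0.15 for TUBA1B and 0.02 ± 0.20 for B2M. Of these 7, 6 were below 0, and adjusted p in edgeR ran from 0.0702 for TUBB and PPIA to 0.970 for B2M. ACTB, B2M, GAPDH and TUBA1B fell among 649 short genes of high counts per base whose own median was -0.61, close to theirs. ACTG1, PPIA and TUBB fell among 365 genes of 1963 to 3007 bases with a median of -0.26, above theirs.

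**Figure D2:**
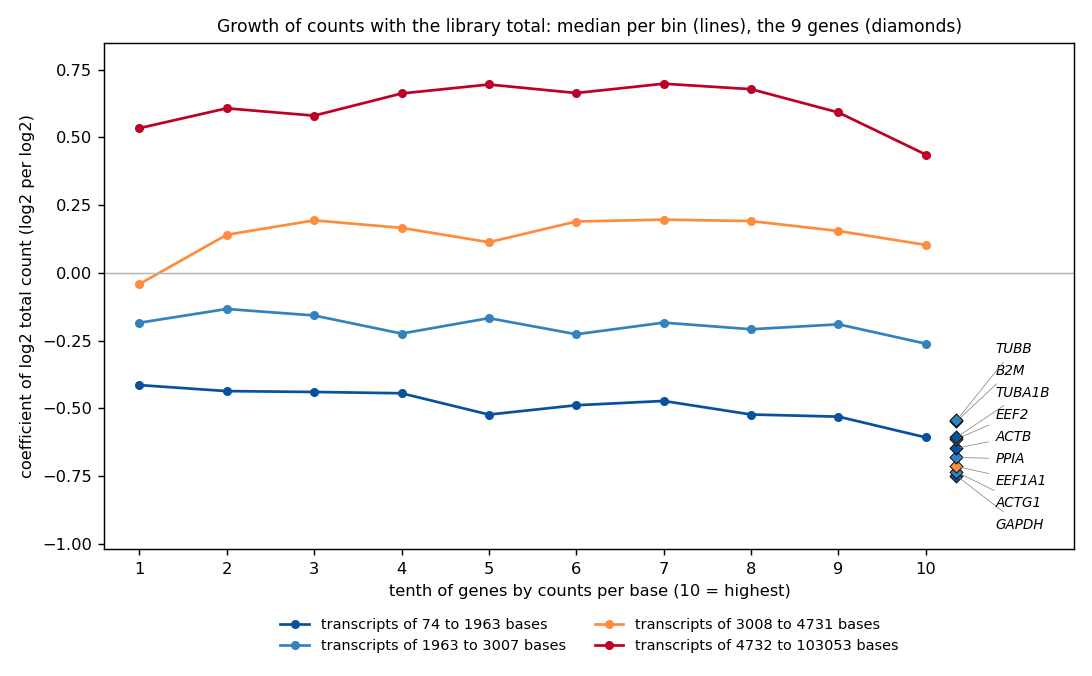
Median coefficient of log2 total count (vertical axis, log2 per log2) by decile of genes in counts per base (horizontal axis, 10 the highest), with 1 line per quartile of transcript length and a diamond for each of the 9 genes in the colour of its length quartile. The lines are ordered by length at every decile, and EEF1A1 and EEF2 lie below the line of their own quartile, at 0.10 in the highest decile.

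**Figure D3:**
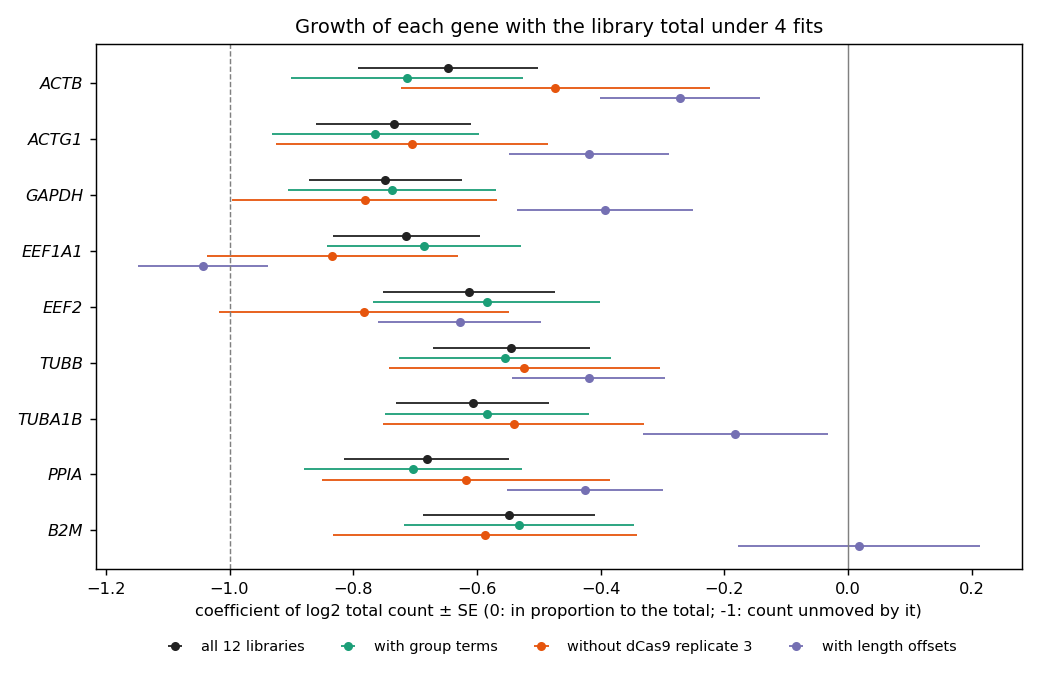
Coefficient of log2 total count with its SE (horizontal axis, log2 per log2) for each gene under 4 fits, all by edgeR. Points of the first 3 fits lie between -0.83 and -0.47 for every gene, and with length offsets they spread from -1.04 for EEF1A1 to 0.02 for B2M.

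In the deepest library the growth of a gene went with its counts per base and hardly with its length. Over the mean of the 10 libraries of middling depth, its total was 1.34-fold and the median gene 1.35-fold. By decile of length the ratio ran from 1.31 in the shortest to 1.36 in the longest, while by decile of counts per base it fell from 1.45 in the lowest to 1.25 in the highest. Within the highest decile of counts per base it was 1.25 to 1.26 in all 4 quartiles of length. The members were lower still, with a median ratio of 1.14, from 1.08 for EEF1A1 through 1.13 for PPIA to 1.19 for TUBB and 1.22 for ACTB. These ratios rest on a single library and have no replicate check.

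In the shallowest library the ratios went mainly with length. Over the same 10 libraries its total was 0.633-fold. By decile of length the ratio ran from 1.02 in the shortest to 0.373 in the longest, and by decile of counts per base from 0.667 in the lowest to 0.829 in the highest. The members' ratios were 0.879 for EEF2 to 0.974 for ACTG1, with a median of 0.932. EEF2 and EEF1A1, at 0.879 and 0.932, were above the 0.590 of the highest-decile genes of their own length quartile.

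Counts per base placed the 9 transcripts in a narrow band near the top of the library. EEF2 had 0.632 ± 0.051 counts per base (SD over 12 libraries), ACTG1 0.514 ± 0.035 in its most counted row, TUBA1B 0.512 ± 0.033, ACTB 0.450 ± 0.042 and TUBB 0.442 ± 0.035. EEF1A1 had 0.400 ± 0.014, GAPDH 0.393 ± 0.022 in its most counted row, B2M 0.360 ± 0.025 and PPIA 0.303 ± 0.021. That GAPDH row was matched to 1875 bases. The other, matched to 1292 bases, had fewer counts but 0.495 ± 0.025 counts per base, so the place of GAPDH depends on the row and its length. The neighbours ACTG1 and TUBA1B, ACTB and TUBB, and EEF1A1 and GAPDH differed by less than their SDs, and the other steps in the order were larger than the SDs of both neighbours. The whole span from PPIA to EEF2 was 2.09-fold.

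All 9 lay above the 99th percentile, 0.290, of the 36001 transcripts of at least 500 bases. The 90th percentile was 6.95 times the median of 0.0142, the 99th was 2.94 times the 90th, and the highest transcript of all, at a mean of 1.14, was 3.94 times the 99th. The highest count per base of such a transcript was 0.780 in the shallowest library and 1.68 in the deepest. No transcript of this length thus reached 2, the highest mark counted. These values rest on matched lengths: the 0.780 was of an RPL15 row matched to 820 bases and the 1.68 of a CBX5 row matched to 894. Above 0.5 counts per base stood 45 to 134 transcripts per library. Among transcripts of any length, 1 row, LUZP6 with a matched length of 177 bases, was higher, at 1.80 to 5.40.

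Taking for each gene only its most counted row, the 10 genes with the highest counts per base were LUZP6, PIGY and 8 ribosomal protein genes (RPL15, RPS2, RPL39, RPL5, RPS18, RPS7, RPS3A and RPL7A). LUZP6 and PIGY were matched to 177 and 217 bases. Their places rest on these lengths, which were not checked against the hg19 models. Less counted rows were higher in single libraries: of transcripts of at least 500 bases, a row of CBX5 or PTP4A2 was the highest in all libraries but dCas9 replicate 3, where it was one of RPL15. The rows of CBX5 and PTP4A2 were matched to 894 and 667 bases, and their places rest on these lengths too. In its most counted row RPL15 stood at 0.885 and RPL7A at 0.664, just above EEF2 at 0.632. ACTG1 summed over its 3 rows would stand at 1.49 and GAPDH over its 2 rows at 0.734, so the order of these genes depends on how shared reads are handled. Processed pseudogenes, retrotransposed copies that can draw reads away, are annotated for PPIA (88 by name), GAPDH (61), EEF1A1 (37), ACTG1 (20), ACTB (9) and TUBB (7). The files list 3 of those of ACTG1, with 754 counts over 12 libraries against 35839 for the gene, and 2 of PPIA, with 184 against 8129, so levels of these 6 genes are uncertain to the extent that reads were split.

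The members varied less in raw counts than after scaling. The coefficient of variation over the 12 libraries had a median of 12.95% for the members in CPM, from 10.25% for B2M to 14.4% for ACTG1, against 18.5% over all genes. Genes of like abundance had the same variation in CPM, with a median of 12.7% in the highest decile of counts per base, so the members were not steadier than these. In raw counts it was 7.04%, from 3.58% for EEF1A1 to 9.33% for ACTB, against 22.4% over all genes and 13.9% in that decile. Counting alone would give EEF1A1 2.37% and ACTB 3.50%. Raw counts varied less than CPM for all 9 members and for 24.1% of genes, while the totals themselves had a coefficient of variation of 15.7%. Without dCas9 replicate 3 the median for CPM was 7.80%.

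Their CPM moved together. The mean of the 9, centred per gene on the log2 scale, was 0.41 in dCas9 replicate 3, -0.26 in dCas9-p300 core replicate 2 and between -0.15 and 0.11 in the 10 others. Pearson's r over 12 libraries ran from 0.773 (ACTB with EEF1A1) to 0.966 (ACTG1 with GAPDH) in the 36 pairs, with a median of 0.911. Over all pairs among genes averaging at least 100 counts the median r was 0.00542. Without the libraries of lowest and highest total, the members' median r was 0.648 and the lowest 0.186, so part of the likeness rests on those 2 libraries. All values within a library share its total, and these correlations are a description.

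Of 8916 other genes averaging at least 100 counts, the 5 most like the members' mean were EEF1G, a subunit of the elongation factor complex, RPS2 and RPL23A, ribosomal proteins, RACK1, a ribosome-bound scaffold, and YWHAE, a 14-3-3 protein. Their r with that mean was 0.984 for EEF1G and RPS2, 0.983 for RACK1 and 0.979 for YWHAE and RPL23A, and 0.888 to 0.929 in the 10 libraries of middling depth.

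Between the 4 groups no member's level passed the test for a difference. EEF1A1 was at 514 ± 100.8 CPM with dCas9 (SD, n = 3), 452 ± 8.7 with dCas9-VP64, 426 ± 51.7 with the p300 core and 489 ± 26.6 with D1399Y. ACTB was at 237 ± 55.9, 208 ± 7.2, 209 ± 23.0 and 206 ± 12.01 CPM, and GAPDH at 408 ± 90.7, 344 ± 14.9, 341 ± 41.5 and 366 ± 2.0 CPM, in the same order of groups. The dCas9 group had the highest mean and the widest spread for all 9 genes, with dCas9 replicate 3 highest and dCas9 replicate 2 lowest of its 3 libraries each time. The test of any difference among the groups called 0 of 9 members at an adjusted p under 0.05 (edgeR adjusted p = 0.981) and 0.0205% of genes, and 0 of 9 at an unadjusted p under 0.05 (1.84% of genes). DESeq2 and limma-voom called 0 of 9 as well.

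**Figure D4:**
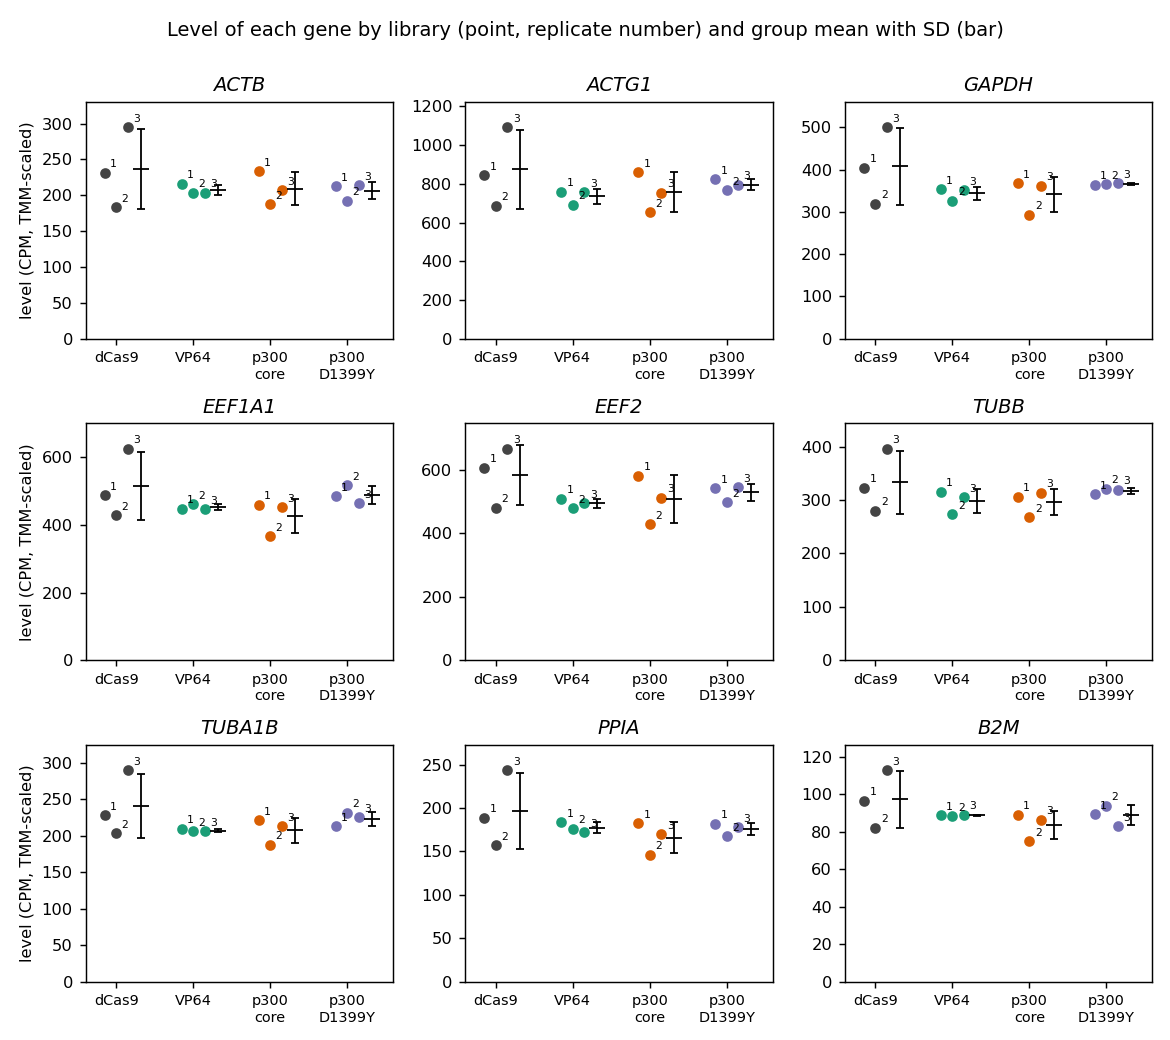
Level of each gene in CPM on TMM-scaled library sizes (vertical axis, from 0) by group, with 1 point per library marked by its replicate number and a bar for the group mean and SD (n = 3). The dCas9 group spreads widest, with replicate 3 at its top and replicate 2 at its bottom for all 9 genes.

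Against dCas9, edgeR called 0 of 9 members with dCas9-VP64 (0% of genes called), 0 of 9 with the p300 core (0.0137%) and 0 of 9 with D1399Y (0.00684%). At an unadjusted p under 0.05 it was 0 of 9 in each (3.08%, 3.15% and 6.13% of genes), and DESeq2 and limma-voom also called none. All 9 log2 fold changes were below 0 in each of these comparisons, with medians of -0.19 for dCas9-VP64 (-0.25 to -0.13), -0.21 for the p300 core (-0.27 to -0.17) and -0.14 for D1399Y (-0.19 to -0.07), where about as many genes lay below 0 as above (51%, 49.4% and 50.8% below). The standard errors were 0.13 to 0.16. The 3 comparisons share the dCas9 libraries, and the groups overlapped for every member in each of them. Of all genes, 2.87%, 3.21% and 3.88% did not overlap and were lower, and 3.04%, 3.67% and 3.26% did not overlap and were higher.

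EEF1A1 changed by -0.19 ± 0.14, -0.27 ± 0.14 and -0.07 ± 0.14 on the log2 scale with dCas9-VP64, the p300 core and D1399Y, and GAPDH by -0.25 ± 0.15, -0.26 ± 0.15 and -0.16 ± 0.15 (SE). Adjusted p in edgeR was 0.925 for all members with dCas9-VP64, 0.870 with the p300 core and 0.632 to 0.827 with D1399Y. Without dCas9 replicate 3 the medians were -0.02, -0.06 and 0.02, with 7, 8 and 3 of 9 below 0. Without dCas9 replicate 2 they were -0.30, -0.31 and -0.25, all 9 below 0 in each, with 0 members called by edgeR. An unadjusted p under 0.05 was then reached by 5, 8 and 1 of 9 members and by 1899, 2068 and 3069 of 14840 genes. With the log2 total as a covariate the medians were -0.01, 0.00 and -0.02, with 5 of 9 below 0 in each. In the CV41 libraries alone the medians were -0.17, -0.21 and -0.12.

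Between the p300 core and D1399Y, which differ in acetyltransferase activity, 0 of 9 members were called (0.00684% of genes; edgeR adjusted p = 1.00), and 0 of 9 had an unadjusted p under 0.05 (1.82%). Fold changes were below 0 for 8 of 9 (49.6% of genes) and had a median of -0.09, from -0.20 for EEF1A1 to 0.02 for ACTB. EEF1A1 had 459, 367 and 453 CPM with the p300 core and 484, 517 and 464 with D1399Y. It was the 1 member of 9 whose groups did not overlap, lower with the core, as for 4.43% of all genes (5.42% were higher without overlap), and its change of -0.20 ± 0.14 did not pass the test. Without dCas9-p300 core replicate 2, the deepest library, the median was 0.00 and 5 of 9 were below 0. Without core replicate 1 it was -0.16 and 9 of 9 were below 0.

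**Figure D5:**
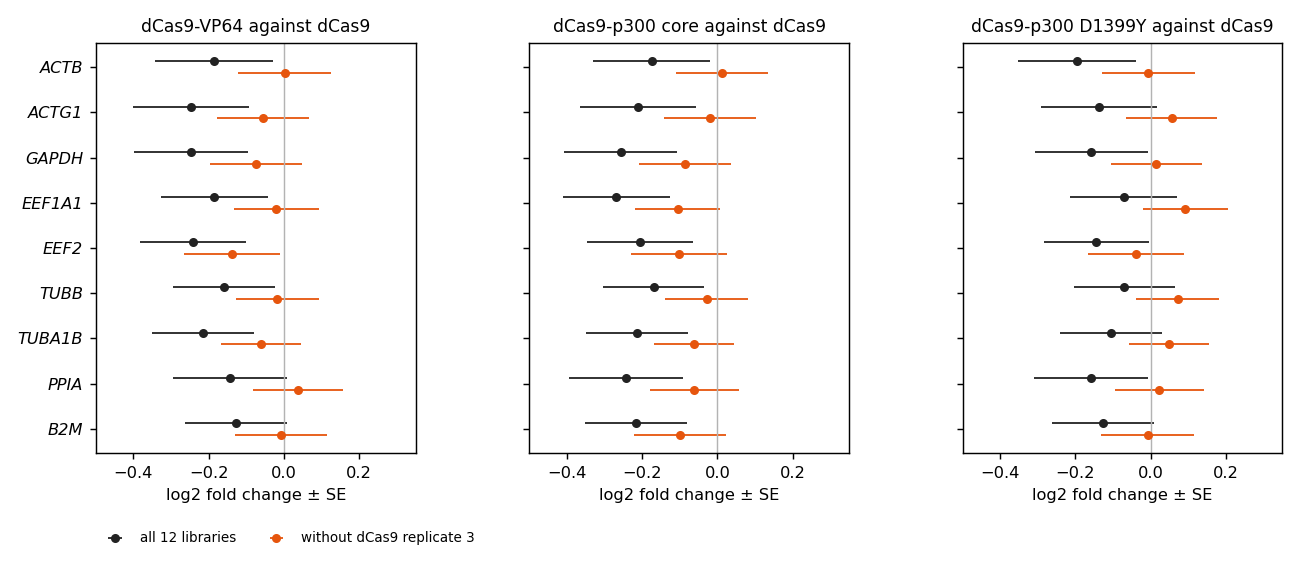
Log2 fold change against dCas9 with its SE (horizontal axis) for each gene and each of 3 groups, with all 12 libraries (black) and without dCas9 replicate 3 (orange). All black points lie below 0, and the orange points lie between -0.14 and 0.09.

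Other genes of the same pathways, from lists drawn up with earlier results of these data known, had medians below 0 for the coefficient on the total in all 7 lists, with members on both sides of 0. In each list no gene was called between groups in any of the comparisons above. Of 10 tested actins and actin partners, 5 were called below 0 and 0 above, with a median of -0.67. CFL1, which severs actin filaments, was at -0.68 ± 0.16 and TMSB4X, which binds actin monomers, at -0.66 ± 0.20, while ACTR2, of the filament-branching complex, was at 0.58 ± 0.24 and was not called. Of 10 other tubulins, 5 were called below 0 and 0 above (median -0.56), among them TUBA1C at -0.57 ± 0.14 and TUBG1, the tubulin of the microtubule-organising centre, at -0.55 ± 0.17.

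Of 11 other translation factors, 8 were called below 0 and 0 above, with a median of -0.70. EEF1G was at -0.78 ± 0.12, TPT1 at -0.78 ± 0.13 and EIF5A at -0.61 ± 0.15, whereas EIF3A, the largest subunit of an initiation complex, was at 0.17 ± 0.16 and EIF4G2 at 0.27 ± 0.16, neither called. Of 14 other glycolysis enzymes, 7 were called below 0 and 0 above (median -0.55), with ALDOA at -0.78 ± 0.20, TPI1 at -0.78 ± 0.20 and ENO1 at -0.74 ± 0.14. HK2, a hexokinase, was at 0.25 ± 0.49 and was not called.

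Of 10 other cyclophilins, 4 were called below 0 and 0 above, with a median of -0.56 and PPIB, of the endoplasmic reticulum, at -0.84 ± 0.17. Of 10 antigen presentation partners of B2M, 4 were called below 0 and 1 above (median -0.41). HLA-B and HLA-C, which encode heavy chains, were at -0.77 ± 0.18 and -0.72 ± 0.14. The aminopeptidase ERAP1 was the one called above, at 1.35 ± 0.42. Reads of these heavy-chain genes can be split among near-identical copies, so their levels are uncertain.

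Of 16 further genes in use as references, 7 were called below 0 and 1 above, with a median of -0.47. RPL13A was at -0.73 ± 0.15, RPLP0 at -0.65 ± 0.14 and HPRT1 at -0.55 ± 0.17. POLR2A, the largest subunit of RNA polymerase II, was the one called above, at 1.07 ± 0.34. TBP, the TATA-binding protein, was at -0.13 ± 0.18 and was not called, with a coefficient of variation of 7.38% in CPM, lower than that of any of the 9 members.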

How the data were processed

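Each library came as a deposited table of counts, whole numbers for 40709 RefSeq transcripts. The submitters' processing notes name the build hg19 and the tools CASAVA, Bowtie2, SAMtools, DESeq2 1.6.2 and R 3.1.2, with no order. For the counting rule, strand, shared reads and duplicate removal nothing was given in the sources used here. Transcripts were named from a RefSeq table (39320) and GENCODE (530), both GRCh38, 859 stayed unnamed, and counts were summed per gene. Lengths came from GENCODE v29 transcripts paired with 38433 rows (96.5% of counts) and can differ from the hg19 models. edgeR 4.0.16 in R 4.3.3 was run with TMM, filterByExpr (minimum count 10, minimum total 15) and the quasi-likelihood test, two-sided, with Benjamini-Hochberg adjustment over 14621 genes and a threshold of 0.05. It was run in 1 fit of 4 group means and 1 of the log2 total. Alternatives used limma 3.58.1 (voom), DESeq2 1.42.0, other filters and factors, a replicate block, left-out libraries, the CV41 libraries and 1 transcript per gene. Offsets for length, the log2 total as a covariate and leaving out the libraries of lowest and highest total together were chosen after seeing the data. Scripts were tested on simulated data. Plots used Python 3.11.15. Depth was 2442960 to 5154627 counts per library.

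The members and lists were chosen with earlier results of these data known. The genes named are the 9 members, the 10 genes of highest count per base, the 5 genes most like the members' mean, list genes past a threshold, and up to 3 per list by smallest p over the groups. ACTR2, EIF3A, EIF4G2, HK2 and TBP were named to show list members that were not called, ACTR2 by the rule and the others after their values were seen. Some list genes are not reported here by name.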

Additional observations from a re-analysis of the deposited data

How the results depend on the processing

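In every alternative run, edgeR, DESeq2 and limma-voom called 0 of 9 members between groups. With the log2 total as a covariate, log2 fold changes that turned above 0 were, for dCas9-VP64 against dCas9, 0.0136 for ACTB, 0.00112 for EEF1A1, 0.04998 for PPIA and 0.0121 for B2M. For the p300 core against dCas9 they were 0.0803 for ACTB, 0.0590 for ACTG1, 0.0237 for TUBB and 0.00574 for PPIA, and for D1399Y against dCas9 0.00813 for ACTG1, 0.0518 for EEF1A1, 0.0297 for TUBB and 0.000247 for TUBA1B. For the core against D1399Y they were 0.0509 for ACTG1, 0.0205 for GAPDH, 0.0321 for EEF2, 0.0339 for PPIA and 0.000938 for B2M. With length offsets, B2M turned to 0.0476 with dCas9-VP64, 0.00524 with the core and 0.144 with D1399Y, where ACTG1 turned to 0.0149, GAPDH to 0.0105 and TUBA1B to 0.0919, and ACTB turned to -0.0134 for the core against D1399Y.

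Leaving out 1 library at a time, dCas9-VP64 against dCas9 ran from -0.319 to 0.00191 for ACTB and from -0.260 to 0.0369 for PPIA, and the core against dCas9 from -0.307 to 0.0122 for ACTB. D1399Y against dCas9 ran from -0.262 to 0.0554 for ACTG1, -0.287 to 0.0152 for GAPDH, -0.167 to 0.0922 for EEF1A1, -0.161 to 0.0719 for TUBB, -0.192 to 0.0490 for TUBA1B and -0.276 to 0.0232 for PPIA. The lows came without dCas9 replicate 2 and the highs without dCas9 replicate 3. The core against D1399Y ran from -0.0654 to 0.0952 for ACTB, -0.178 to 0.0225 for ACTG1, -0.170 to 0.0487 for EEF2 and -0.156 to 0.00345 for PPIA, with core replicates 1 and 2 left out at the ends.

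For the coefficient on the log2 total, 9 members were called in the fit of all libraries, 0 with group terms, 4 in the CV41 libraries, 0 without the libraries of lowest and highest total together (median -0.82), 2 with length offsets (B2M 0.0174), and 0 to 9 with 1 library left out. Genes called fell from 2152 to 374 with length offsets and to 227 in the CV41 libraries. With the replicate block, 3 members and 99 genes were called, and no call between groups changed for a member. Of 18 same-numbered pairs of libraries, 14 deviated together with r over 0.1 and the lowest was -0.18. Their median r was 0.263, against -0.126 for pairs of other numbers, and 11 of 12 libraries were closest on average to libraries of their own number, a hint from the data, while the labels tie the numbers to no shared culture or day. The median coefficient of variation ran from 7.80% to 13.5% with 1 library left out. The highest count per base, a mean of 4.15 over libraries, was 1.20 among transcripts of at least 500 bases. The first was of LUZP6 at a matched length of 177 bases, and both values rest on matched lengths. The causes of these shifts were not tested. Depth limits B2M most, where counting alone gives a coefficient of variation of 5.43%.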
